A study of Mus musculus with 6 samples.

Results

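The mRNA levels of 9 transcription factor genes that govern when an epidermal keratinocyte leaves the basal state were examined in hair bulge (HB)-derived keratinocytes of mice with and without integrin α3β1. The genes were chosen by name, with earlier results of these data known, and all 9 were present among the 22295 genes of the count table. Trp63 and Klf5 were treated as basal factors, and Klf4, Ovol1, Cebpa, Cebpb, Grhl1, Grhl3 and Prdm1 as commitment factors. RNA was sequenced from GFP-positive keratinocytes, sorted by FACS from the epidermis of 3 K19 Itga3 WT and 3 K19 Itga3 KO mice, with 1 library per mouse. Both lines were on an FVB background and carried K19(Cre-ERT), a tamoxifen-inducible Cre under the promoter of the HB keratin K19, with the mTmG reporter, which turns recombined cells and their progeny GFP-positive. The KO line also carried Itga3 fl/fl. Each mouse of either line received tamoxifen (10 mg/ml over 4 days at 6 weeks of age, per the labels) and 1 dose of 30 µg of the mutagen DMBA at 7 weeks. The growth promoter TPA (12.34 µg per dose) was then applied for a short course, so no untreated skin was available for comparison. The study's methods state a different tamoxifen concentration for the injections and an earlier start than the labels. They also name additional topical doses of tamoxifen at 6 weeks.

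The column names of the table gave the genotype and codes that the sample labels do not hold, so the libraries are called WT a to c and KO a to c in the order of the table. Library totals ranged from 20578309 to 23670507 counts. The targeted gene Itga3 ranged from 252 to 371 CPM (counts scaled to library size with TMM factors) in WT and from 124 to 134 CPM in KO libraries. It fell by 1.20 on the log2 scale (SE, standard error, 0.13, edgeR adjusted p = 0.00283). Transcripts of basal keratinocytes were abundant in all 6 libraries, with at least 14270 CPM of Krt5 and 5152 CPM of Krt14, and so were those of the HB markers Krt15 (9616 to 15460 CPM), Cd34 (399 to 881 CPM) and Lgr5 (362 to 695 CPM). The library KO a held the least Krt15, Cd34 and Lgr5 of the 6. In such bulk RNA, a lower number of cells of a type and less RNA per cell cannot be told apart.

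Keratinocytes of the basal layer divide while attached to the basement membrane, and commitment takes them upward through the spinous and granular layers to the cornified layer. p63, the product of Trp63, maintains the basal state and is also needed to start stratification. KLF5 is a Krüppel-like zinc finger factor of proliferating epithelial cells, and its relative KLF4 is required for the skin barrier. OVOL1, a zinc finger repressor, restrains the proliferation of keratinocytes that begin to differentiate. The basic leucine zipper factors C/EBPα and C/EBPβ act together in the exit from the basal layer. GRHL3 and GRHL1, of the grainyhead family, regulate genes of the cornified envelope and of desmosomes, respectively, and PRDM1 (BLIMP1) is a zinc finger repressor of the late, granular stage.

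The promoters of the 2 members that passed the test between genotypes, Prdm1 and Cebpb, are shown together with those of Grhl3, which had the largest log2 fold change of the members that did not pass, and Klf4, which hardly differed. Each sequence holds the 250 bases before the RefSeq start site (GRCm38.p6), written 5′ to 3′ on the strand of the gene. Prdm1 lies on the minus strand at chr10:44458749-44458998, within the gene as listed in the count table (chromosome 10, 44437177 to 44528501), Cebpb on the plus strand at chr2:167688665-167688914, Grhl3 on the minus strand at chr4:135573633-135573882 and Klf4 on the minus strand at chr4:55532476-55532725. Capitals mark matches to 6 motifs on either strand, which are CACCC for Krüppel-like factors, TTNNGCAA for C/EBP, ACCGGT for grainyhead factors, CCGTTA for OVO factors, TGANTCA for AP-1 and the TATA box TATAAA.
Prdm1: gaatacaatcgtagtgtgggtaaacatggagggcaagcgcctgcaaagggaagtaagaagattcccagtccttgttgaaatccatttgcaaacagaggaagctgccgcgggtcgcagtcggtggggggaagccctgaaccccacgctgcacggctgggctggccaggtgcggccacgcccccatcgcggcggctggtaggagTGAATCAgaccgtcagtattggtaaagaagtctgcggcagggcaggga
Cebpb: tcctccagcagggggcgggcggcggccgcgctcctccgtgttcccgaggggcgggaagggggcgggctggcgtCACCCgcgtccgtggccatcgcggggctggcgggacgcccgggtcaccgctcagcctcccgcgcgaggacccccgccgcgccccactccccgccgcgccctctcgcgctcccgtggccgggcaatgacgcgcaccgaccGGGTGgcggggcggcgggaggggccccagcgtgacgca
Grhl3: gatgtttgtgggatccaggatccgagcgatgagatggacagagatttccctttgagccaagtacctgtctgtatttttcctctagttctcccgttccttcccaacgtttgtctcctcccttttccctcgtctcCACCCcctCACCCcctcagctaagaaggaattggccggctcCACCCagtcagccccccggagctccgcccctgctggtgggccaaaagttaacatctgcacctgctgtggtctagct
Klf4: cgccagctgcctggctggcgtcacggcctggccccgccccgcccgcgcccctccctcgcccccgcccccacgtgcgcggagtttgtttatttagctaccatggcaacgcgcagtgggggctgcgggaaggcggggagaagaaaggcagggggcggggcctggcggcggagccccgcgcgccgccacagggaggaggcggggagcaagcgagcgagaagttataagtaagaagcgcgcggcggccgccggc
Cebpb held 2 matches to CACCC and Grhl3 held 3, and 52% of all 32851 promoter windows of this length held at least 1. Prdm1 held 1 match to the AP-1 motif, which was found in 6.75% of windows. No capitals stand in the Klf4 window, and no 2 matches overlapped in the sequences shown. The motifs of C/EBP (9.56% of all windows), grainyhead (1.86%) and OVO factors (2.18%) matched in none of the 4 windows. GC content was 59.2% for Prdm1, 81.6% for Cebpb, 56% for Grhl3 and 74% for Klf4. These matches describe letters only, and binding was not measured.

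To determine whether loss of α3β1 altered these factors, KO libraries were compared with WT libraries. Prdm1 and Cebpb rose in KO keratinocytes (adjusted p below 0.05 in edgeR), which is 2 of 9 members, whereas 0.673% of all 21681 genes tested passed and 0.461% passed as higher in KO. In 6 of the 7 commitment factors each KO library lay above each WT library, as did 8.03% of all genes. At an unadjusted p below 0.05, 7 of the 9 members were higher in KO, against 5.58% of all genes. Of the 8575 genes with a mean log2 CPM above 4, 73 passed as higher in KO. In 1077 of the 8575 each KO library lay above each WT library, and 783 were higher at an unadjusted p below 0.05 in edgeR. The members were chosen with earlier results of these data known, so their excess over other genes is not independent evidence. The median log2 fold change was 0.68 over the 7 commitment factors and 0.20 over both basal factors, beside a median of 0.02 over the 8575 genes with a mean log2 CPM above 4. The exact two-sided permutation test over 3 against 3 mice gave p = 0.1 for each of the 6 factors without overlap, the smallest p that this design allows.

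**Figure D1:**
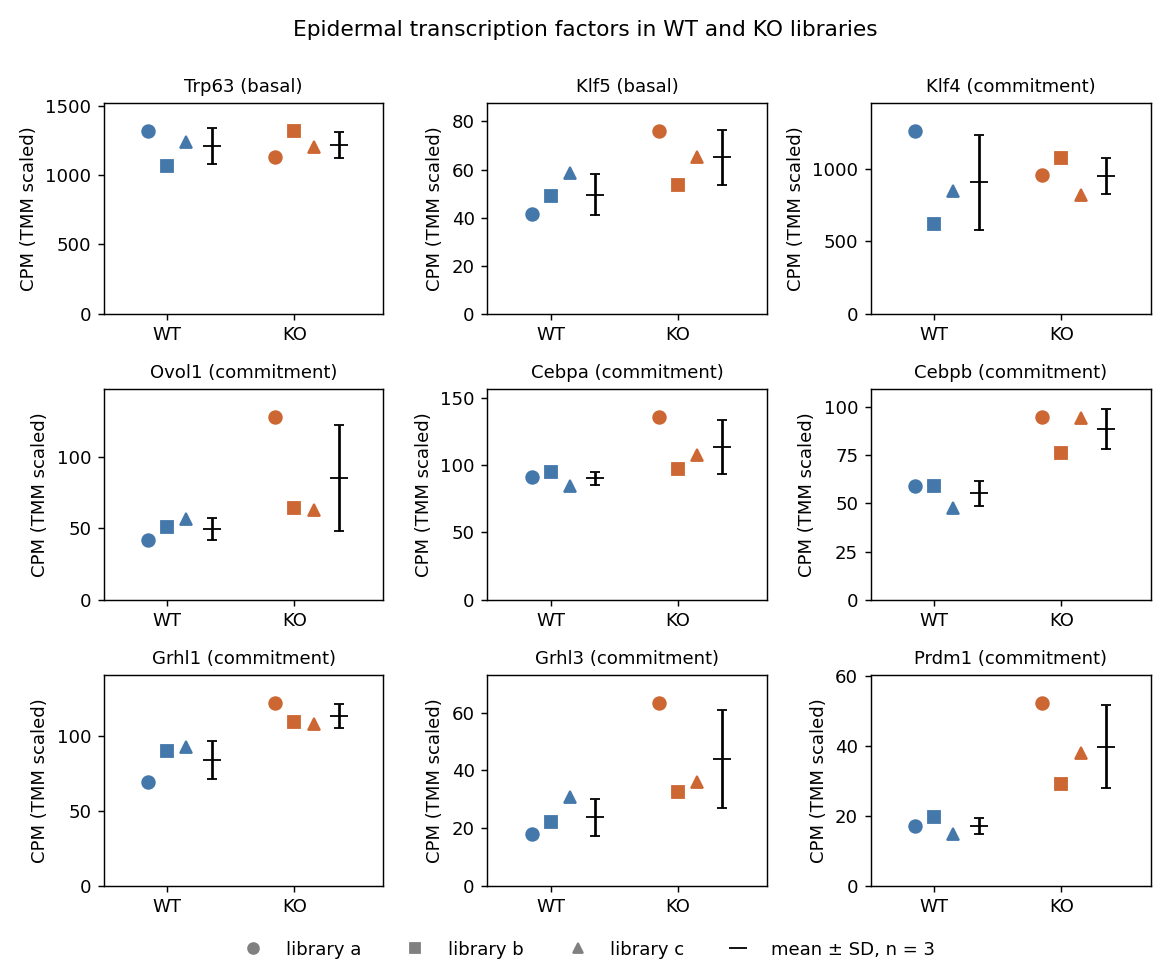
Level of each of the 9 factors in CPM (TMM scaled, axes from 0), with 1 point per library and the mean ± SD of 3 libraries beside each genotype. Ovol1, Cebpa, Cebpb, Grhl1, Grhl3 and Prdm1 show no overlap between WT and KO, whereas Trp63, Klf5 and Klf4 overlap.

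Prdm1 (ENSMUSG00000038151) showed the largest difference of the 9. Its level was 17.0, 19.6 and 14.9 CPM in the WT libraries and 52.5, 29.0 and 38.01 CPM in the KO libraries. The lowest KO library thus stood above the highest WT library, and the KO libraries spread more widely. The mean rose 2.32-fold, from 17.1 ± 2.33 to 39.8 ± 11.8 CPM (SD, n = 3 each), which is 1.22 on the log2 scale (SE 0.19, edgeR adjusted p = 0.0213).

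Cebpb (ENSMUSG00000056501), a gene without introns on chromosome 2 (167688915 to 167690418), stood at 59.1, 59.2 and 47.7 CPM in the WT libraries and at 95.2, 76.5 and 94.4 CPM in the KO libraries. The groups did not overlap, and KO a and KO c were almost equal. The log2 fold change was 0.68 (SE 0.12, edgeR adjusted p = 0.0260), from 55.3 ± 6.60 to 88.7 ± 10.6 CPM (SD, n = 3 each). Part of Cebpb (17.3% of the 65-base windows of its transcripts) lies opposite an exon of Tmem189 on the other strand, and the authors' counting took the strand into account. Its paralog in the same role, Cebpa (ENSMUSG00000034957, chromosome 7), had 91.1, 94.7 and 84.8 CPM in WT and 136, 97.5 and 107 CPM in KO libraries. The gap between the groups was narrow, with WT b just below KO b, and the log2 fold change of 0.33 (SE 0.12, edgeR adjusted p = 0.284) did not pass.

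Both grainyhead genes were separated by genotype without passing the test. Grhl3 (ENSMUSG00000037188, chromosome 4) had 18.1, 22.1 and 30.8 CPM in WT and 63.5, 32.6 and 35.8 CPM in KO libraries. WT c and KO b almost met, whereas KO a was far above the rest, and the log2 fold change of 0.89 had an SE of 0.25 (edgeR adjusted p = 0.144). Grhl1 (ENSMUSG00000020656, chromosome 12) varied less, with 69.2, 90.1 and 92.9 CPM in WT and 122, 109 and 108 CPM in KO libraries. Its KO libraries were close together, WT a was the lowest, and the log2 fold change was 0.43 (SE 0.12, edgeR adjusted p = 0.137).

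Ovol1 (ENSMUSG00000024922, chromosome 19) had 41.6, 50.8 and 56.4 CPM in WT and 128, 64.4 and 63.0 CPM in KO libraries. KO a held about 2.03 times the level of KO c, and the other KO libraries were just above WT c. The log2 fold change was 0.78 (SE 0.23, edgeR adjusted p = 0.180). Annotated transcripts on the opposite strand cover 18.8% of the 65-base windows of Ovol1.

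Klf4 (ENSMUSG00000003032, chromosome 4) did not separate the genotypes. It had 1263, 618 and 843 CPM in WT and 957, 1072 and 820 CPM in KO libraries, so the highest and the lowest library were both WT. The spread between WT mice (2.05-fold from lowest to highest) exceeded the difference in means, and the log2 fold change was 0.06 (SE 0.21, edgeR adjusted p = 0.923).

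Of the basal factors, Trp63 (ENSMUSG00000022510, chromosome 16, 25683763 to 25892102) was the steadiest of the 9 genes. Its level was 1320, 1066 and 1238 CPM in WT and 1131, 1321 and 1201 CPM in KO libraries, with a log2 fold change of 0.01 (SE 0.11, edgeR adjusted p = 0.997). The groups overlapped over nearly their whole range. The count covers the whole gene, so the TA and ΔN forms of p63 were not separated. Klf5 (ENSMUSG00000005148, chromosome 14) had 41.3, 49.1 and 58.4 CPM in WT and 76.2, 53.6 and 65.3 CPM in KO libraries. WT c exceeded KO b, and the log2 fold change of 0.39 (SE 0.15, edgeR adjusted p = 0.311) did not pass.

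**Figure D2:**
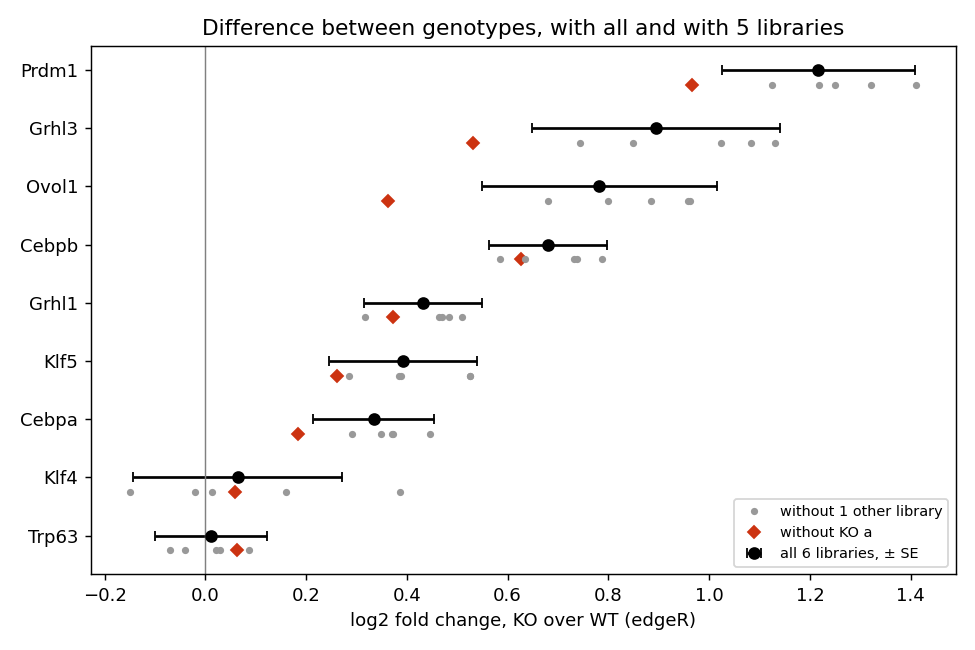
Log2 fold change of KO over WT for each factor from edgeR, with all 6 libraries (black, ± standard error), without KO a (red) and without each of the other libraries in turn (grey). Without KO a the value for Ovol1 is 0.36 in place of 0.78, and the value for Prdm1 is 0.97 in place of 1.22.

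The library KO a held the highest level of 7 of the 9 factors, all but Klf4 and Trp63. Without it, the median over the 7 commitment factors was 0.37 in place of 0.68. The log2 fold change was 0.97 for Prdm1 (SE 0.165), 0.63 for Cebpb (0.13), 0.53 for Grhl3 (0.21), 0.37 for Grhl1 (0.13), 0.36 for Ovol1 (0.13) and 0.18 for Cebpa (0.09). No member passed in edgeR without KO a (adjusted p = 0.174 for Prdm1 and 0.290 for Cebpb), while 10 genes passed in all. In that fit 5 members were higher in KO at an unadjusted p below 0.05, as were 3.45% of the 21328 genes tested.

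The calls of Prdm1 and Cebpb also depended on the tool and on other libraries. In limma-voom neither passed (adjusted p = 0.109 and 0.106), nor did any other member (7 had an unadjusted p below 0.05), where 0.06% of genes passed as higher in KO. With filterByExpr both stood at an adjusted p of 0.118 in edgeR, without WT c at 0.368 and 0.364, and without KO c at 0.0735 and 0.144. In DESeq2, Prdm1 (adjusted p = 7.53e-06), Cebpb (0.000242) and Grhl3 (0.0258) passed, where 2.29% of the genes with an adjusted p passed as higher in KO. Over 12 alternatives the log2 fold change stayed between 0.97 and 1.41 for Prdm1 and between 0.58 and 0.79 for Cebpb, with an adjusted p below 0.05 in 6 of the 12 for each.

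To compare the factors with each other, levels were divided by the length of all exons of each gene (CPM per kb). Klf4 ranked first, at 203 to 414 CPM per kb over the 6 libraries, followed by Trp63 at 127 to 157. Cebpb (31.7 to 63.3) and Cebpa (32.2 to 51.7) came next, then Ovol1 (11.9 to 36.8), Grhl1 (12.5 to 22.1), Grhl3 (6.48 to 22.8) and Klf5 (7.95 to 14.7), and Prdm1 ranked last at 2.67 to 9.40 CPM per kb. A commitment factor and a basal factor therefore stood together at the top, and the factor that rose most was the lowest of the 9. The gap between Klf4 and Trp63 depended on the length used. It was 1.04 on the log2 scale with all exons and 0.41 with the longest transcript.

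Between neighbours in this order, Klf4 exceeded Trp63, Trp63 exceeded Cebpb, Cebpa exceeded Ovol1 and Klf5 exceeded Prdm1 in 6 of 6 libraries. Each of these 4 pairs had an exact two-sided sign-flip permutation p of 0.0312, the smallest that 6 libraries allow, and an adjusted p of 0.0625 over the 8 pairs. The order was taken from the means of these same 6 libraries, so the p values of the pairs are a description only. The sign flips also pooled WT and KO libraries. Cebpb exceeded Cebpa in 5 of 6 libraries (log2 difference 0.28 ± 0.23, SD, n = 6, exact permutation p = 0.0625, adjusted p = 0.0833). Ovol1, which exceeded Grhl1 in 1 of 6 libraries (0.04 ± 0.34), and Grhl3, which exceeded Klf5 in 3 of 6 (0.05 ± 0.34), did not differ by more than the spread between libraries, and with the longest transcript in place of all exons both pairs changed places.

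**Figure D3:**
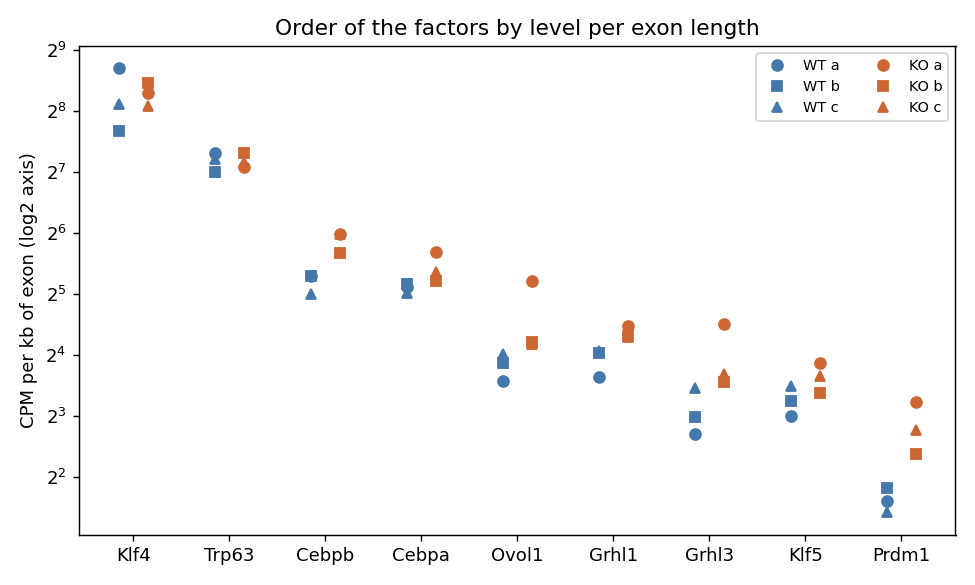
CPM per kb of exon (log2 axis) of the 9 factors in the 6 libraries, ordered by mean level, with WT in blue and KO in orange. Klf4 and Trp63 lie above all other factors in every library, and Prdm1 lies lowest in each of the 6.

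The mean log2 CPM per kb of the commitment factors was set against that of the basal factors within each library. The difference was −0.77, −0.71 and −0.91 in the WT libraries and −0.13, −0.51 and −0.51 in the KO libraries. All 3 KO values were thus nearer to 0 than any WT value. The genotype means were −0.80 ± 0.10 for WT and −0.38 ± 0.21 for KO (SD, n = 3 each), a shift of 0.41 on the log2 scale towards the commitment factors. Because the genes were chosen as a set, no test was made of this value.

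Relatives of the 9 factors within their families were examined next. None of the 12 relatives tested (Trp53, Trp73, Klf2, Klf3, Klf6, Klf9, Klf10, Klf13, Grhl2, Ovol2, Cebpd and Cebpg) passed in edgeR, limma-voom or DESeq2 (0 of 12 in each), and 4 had an unadjusted p below 0.05 in edgeR, all higher in KO. Their median log2 fold change was 0.13. Of the other C/EBP genes, Cebpd differed by 0.62 on the log2 scale (SE 0.20, edgeR adjusted p = 0.236) and Cebpg by −0.04 (SE 0.12, edgeR adjusted p = 0.921), both with overlapping groups. Grhl2, the third grainyhead gene, had 222, 228 and 232 CPM in WT and 218, 218 and 196 CPM in KO libraries. Its groups did not overlap either, but in the opposite direction to Grhl1 and Grhl3 (log2 fold change −0.11, SE 0.09, edgeR adjusted p = 0.679).

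Among 30 other regulators of epidermal differentiation, 0 passed in edgeR or limma-voom and 2 passed in DESeq2. At an unadjusted p below 0.05 in edgeR, 8 were higher in KO and 0 were lower. Zfp750, a target of p63 that acts with KLF4 and was named here after its values were seen, differed by 0.68 on the log2 scale (SE 0.15, edgeR adjusted p = 0.0708) without overlap between the groups. The median of the 30 was 0.08, with 20 higher and 10 lower in KO. Myc, which OVOL1 and PRDM1 are known to repress, had 237, 132 and 170 CPM in WT and 213, 185 and 172 CPM in KO libraries, which overlapped.

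**Figure D4:**
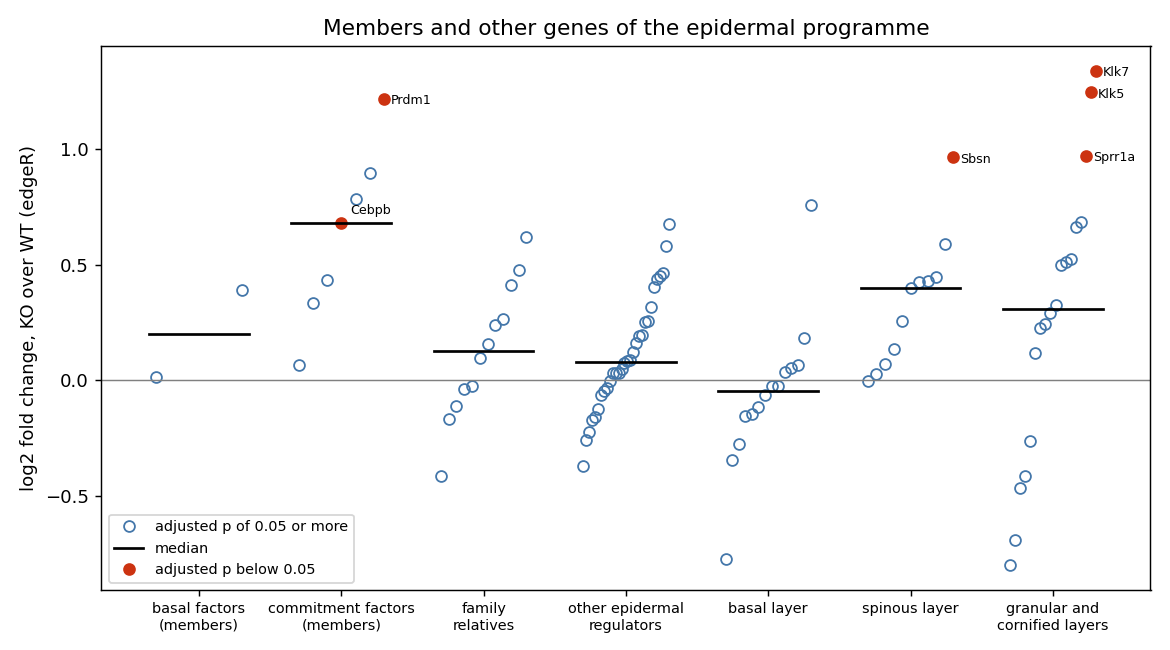
Log2 fold change of KO over WT (edgeR) for each gene of the basal and commitment factors, their relatives, other epidermal regulators and genes of 3 layer groups, with the median as a line. Filled red points mark an adjusted p below 0.05, which Prdm1, Cebpb, Sbsn, Sprr1a, Klk5 and Klk7 reached.

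Genes that these factors serve were described by layer. None of 14 basal layer genes passed in edgeR or limma-voom (0 of 14 in each, 2 in DESeq2), 1 was higher and 2 were lower at an unadjusted p below 0.05 in edgeR, and the median log2 fold change was −0.05. Of 11 spinous genes, 1 passed (Sbsn, which encodes suprabasin), with 10 higher and 1 lower in KO and a median of 0.40, or 0.18 without KO a. Of 18 granular and cornified genes, 3 passed (Klk5 and Klk7, kallikrein proteases, and Sprr1a, an envelope precursor), with 13 higher and 5 lower and a median of 0.31, or 0.35 without KO a. At an unadjusted p below 0.05, 8 of the 18 were higher and 1 was lower in KO. The study reported several squamous differentiation genes as higher in KO from these same libraries. The genes that passed here are therefore not independent evidence of a direction.

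The groups held genes of both directions. Krt1 and Krt10, the keratins that appear first on commitment, had log2 fold changes of 0.07 (SE 0.12) and 0.03 (SE 0.15). Lor, of the cornified envelope, ranged from 8.44 to 60.1 CPM in WT and from 1.49 to 25.04 CPM in KO libraries. Its lowest level was in KO a, where 7 of the 9 factors were highest. Ivl, a precursor of the envelope, differed by 0.33 on the log2 scale (SE 0.21, edgeR adjusted p = 0.617). The next 3 genes were named after their values were seen. Tgm1, a known target of GRHL3, had 15.01, 13.8 and 21.5 CPM in WT and 34.2, 23.97 and 21.5 CPM in KO libraries (edgeR adjusted p = 0.183). Another transglutaminase gene, Tgm5, lay in the other direction without overlap, at 485, 399 and 453 CPM in WT and 291, 360 and 315 CPM in KO libraries (log2 fold change −0.47, SE 0.11, edgeR adjusted p = 0.0861). Dsg1a, of the desmosomal cadherins that GRHL1 regulates, differed by 0.45 on the log2 scale (SE 0.18, edgeR adjusted p = 0.369).

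For each factor the 2 protein-coding genes with the most similar course over the 6 libraries were sought among 8491 genes with a mean log2 CPM above 4, by the root mean square (RMS) distance of the centred log2 CPM. Klk7 and Klk5 were nearest to Prdm1, at RMS distances of 0.15 and 0.18, and Hk2, which encodes a hexokinase, and Kazn were nearest to Cebpb, at 0.03 and 0.07. Klk10 (0.10) and 2310042E22Rik (0.13) were nearest to Ovol1, and Galnt6 (0.12) and Pla2g4e (0.15) to Grhl3. The nearest to Grhl1 were Aldh3b2 (0.03) and Fam110a (0.05), to Cebpa Pim3 (0.03) and Mdfi (0.04), and to Klf5 Rel (0.06) and 1700025G04Rik (0.08). Whrn (0.04) and Heg1 (0.07) followed Klf4, and Atg7 (0.00635) and Anxa2 (0.02) followed Trp63. The median distance of all candidates was 0.65 for Prdm1 and 0.16 for Trp63, and a close match over 6 values among so many genes is a description only.

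Markers of other cells that the sort could hold were summed per library, since Prdm1, Cebpa and Cebpb are also expressed in sebocytes or immune cells. The 9 immune markers summed to 9.44 to 16.0 CPM in WT and 11.1 to 15.3 CPM in KO libraries, Cd74 being the most abundant (4.44 to 9.04 CPM), and Lyz2 was at 0 in 5 of 6 libraries. The 11 sebocyte markers summed to 715 to 873 CPM in WT and 847 to 1002 CPM in KO libraries, and the sum was highest in KO a. Singly, Scd1, Far2, Elovl3, Cidea and Mc5r were highest in WT b (Scd1 at 348 CPM there and at 279 CPM in KO a). Plin2 and Scd3 were highest in KO a, and the rest in other libraries. Fasn, which keratinocytes also express, was the most abundant of the 11 by the mean over the 6 libraries (277.7 to 485 CPM), although Scd1 exceeded it in WT b. Mc5r did not exceed 0.595 CPM and was at 0 in WT a. Of the 11, 8 were higher in KO, 0 passed in edgeR, limma-voom or DESeq2, 4 were higher and 1 was lower at an unadjusted p below 0.05 in edgeR, and their median log2 fold change was 0.25, or −0.07 without KO a.

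The 6 fibroblast markers summed to 116 to 178 CPM in WT and to 48.1 to 80.3 CPM in KO libraries. Col1a1 had the highest mean (26.9 to 123 CPM), although Col1a2 exceeded it in WT b, and Col3a1 was at 0 in 4 of 6 libraries. None of the 6 passed in edgeR or limma-voom (2 in DESeq2), while 2 were higher and 3 lower at an unadjusted p below 0.05 in edgeR. The 5 melanocyte markers, led by Dct, summed to at most 13.4 CPM, and the 3 endothelial markers to at most 3.44 CPM. Kdr had the highest mean of the latter over all 6 libraries, but Pecam1 exceeded it in KO a and KO c. Cd34 was lower in KO (log2 fold change −0.72, SE 0.14, edgeR adjusted p = 0.0462, 0.119 from limma-voom), as the 1 of 7 HB markers that passed. Of the 7, 5 were lower and 2 higher in KO, and 2 were lower and 0 higher at an unadjusted p below 0.05 in edgeR. The median of the 7 was −0.11, or −0.01 without KO a, where the log2 fold change was −0.57 for Cd34 and −0.36 for Lgr5. The cells had been sorted for GFP after recombination by K19-driven Cre, a gate meant for HB-derived keratinocytes, and the purity of the sort was not measured here. The part of sebocytes, fibroblasts and the content of HB cells in the levels of the 9 factors was not tested.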

How the data were processed

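Strand-specific libraries of polyadenylated RNA were sequenced by the authors with single reads of 65 bases and aligned with TopHat 2.1.0 and Bowtie 1.1 to mouse genome build 38 with Ensembl gene models. The deposited values are counts of uniquely mapped reads per gene and strand, neither normalized nor pooled. Column names held the genotype and codes absent from the labels, so no library could be tied to a numbered sample, and the libraries were used as unnumbered replicates. No 2 libraries were alike within counting noise, the closest pair exceeding it 10.7 times by chi-square. Depth of 20578309 to 23670507 counts puts 3 counts, taken as the floor, at 0.128 to 0.145 CPM, which covers counting error only, and every member had at least 338 counts in each library.

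The 21681 genes that were not at 0 throughout were tested for KO against WT with edgeR 4.0.16 in R 4.3.3 (TMM factors, quasi-likelihood), with Benjamini-Hochberg adjustment over all of them. Each adjusted p is from edgeR unless limma-voom (limma 3.58.1) or DESeq2 1.42.0 is named. Fold changes are fitted by edgeR, and CPM values carry no pseudocount. Each SE is the absolute log2 fold change divided by the square root of the F statistic of the edgeR test, so it is not a separate estimate. Exon lengths were taken from GENCODE M21 (GRCm38), which lists 98.9% of the genes in the table, 70.2% of them at unchanged coordinates. Other coordinates are those of the table. No 65-base window of a member matched a gene elsewhere in that annotation. Promoters came from RefSeq, whose table matched 6 of the 9 members. The code was tested on simulated counts.

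Alternatives were limma-voom, DESeq2, library size only, upper-quartile factors, filterByExpr, at least 10 counts in every library, each library left out, the longest transcript, and Trp63 alone as basal. In the last of these Klf5 was counted with the commitment factors. Named genes were the 9 members, the 2 nearest profiles of each, genes of the lists with an adjusted p below 0.05, Itga3, Krt15, Cd34, Lgr5, Krt1, Krt10, Ivl, Lor and the most abundant marker of each other cell type. Others (Myc, Zfp750, Tgm1, Dsg1a, Cebpd, Cebpg, Grhl2, Krt5, Krt14, Tmem189, Lyz2, Mc5r, Col3a1, Tgm5, Scd1, Far2, Elovl3, Cidea, Plin2, Scd3, Col1a2 and Pecam1) were named after their values were seen. Of the list of other regulators, 1 gene is not reported here and was left out of its counts. The members and lists were chosen with earlier results of these data known.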

Additional observations from a re-analysis of the deposited data

How the results depend on the processing

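All 9 members kept their direction under every alternative except Trp63, whose log2 fold change was −0.0033 with upper-quartile factors and −0.0708 to 0.0866 when single libraries were left out, and Klf4, with −0.15 to 0.39 when single libraries were left out. The number of members with an adjusted p below 0.05, 2 with all libraries in edgeR, was 0 in limma-voom, with filterByExpr and with a minimum of 10 counts per library, and 0 to 2 when single libraries were left out, 0 being reached without WT c, KO a or KO c. Over the 5 gene lists outside the members, 4 genes passed in edgeR, 3 in limma-voom and 0 to 9 when single libraries were left out. The mean log2 difference of commitment and basal factors over the 6 libraries was −0.59, and −1.09 with the longest transcript. It was −2.62 with Trp63 alone as basal, where Klf5 was counted with the commitment factors. Its shift between the genotypes was 0.414 with the longest transcript and with library size only, which by construction cannot change it. The shift was 0.57 with Trp63 alone as basal and 0.29 to 0.48 when single libraries were left out. Each of these moved it by less than the spread between libraries (pooled SD 0.17). No neighbouring pair in the order of levels had an adjusted p below 0.05 with all exons, the longest transcript or library size only. With 6 libraries the smallest exact p is 0.0312. Over 8 pairs, an adjusted p below 0.05 therefore needs most pairs at that smallest value, so little can be read from this outcome. Library scaling cannot change this order, because both genes of a pair share the library. With 5 libraries the smallest exact p is 0.0625, so that order was not tested without single libraries. The causes of these changes were not tested. No paired analysis was possible because the codes in the column names of the count table match no numbered sample in the labels, and each library came from a different mouse. With 3 mice per genotype the spread between mice, not the depth, sets the precision of these values.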
